A study of Mus musculus with 59 samples.

Results

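The data described here are 19 of the 59 libraries of the series: diaphragm messenger RNA from mice that carried a non-cachectic melanoma and received either recombinant Fibcd1 (rFibcd1, n = 10) or mock injections (n = 9). The members were taken by name, as the columns whose headers give diaphragm, the non-cachectic melanoma, and rFibcd1 or no rFibcd1. All mice were 4-month-old females of the athymic nude strain NCI Ath/nude, which lack a thymus and mature T cells but keep B cells and macrophages, and all bore a subcutaneous xenograft of human pediatric melanoma cells of a kind that does not induce wasting. rFibcd1 is the C-terminal, secreted part of mouse Fibcd1 made in insect cells with a baculovirus, and it was given by repeated intraperitoneal injection in the last week of tumor growth, in saline with albumin. The mock mice had the same saline with albumin. A further 20 diaphragm libraries came from mice with a cachectic melanoma, 10 with and 10 without rFibcd1, and the other 20 libraries were limb muscles of mice with either melanoma. The comparison asks what rFibcd1 does to diaphragm transcripts when the tumor does not waste the muscle.

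Fibcd1 is a fibrinogen-domain protein that binds acetylated sugars at the cell surface and can be shed, and in this study it was followed as a muscle-secreted factor, with ERK signaling and integrins examined as its possible path into muscle fibers. Several of the genes that separated the groups belong to the circadian clock, which runs in muscle as in most tissues. Its activators, Arntl (Bmal1) paired with Clock or Npas2, bind E-box sequences and turn on Per, Cry, Nr1d and Dbp genes, whose Per and Cry products then repress the activators, while Nr1d proteins repress Arntl transcription and Rora raises it. The PAR bZIP factors Dbp, Tef and Hlf carry the rhythm onward by binding D-box sequences, where Nfil3 represses, so that activators and PAR bZIP factors peak at opposite times of the day.

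Sequences of promoters are given first for the called genes that hold an E-box or a D-box in the 250 bases before their annotated start, since E-box and D-box are the sites through which the clock proteins act. Capitals mark D-box TTATGTAA in Per3 and E-box CACGTG in all the others. All are 5′ to 3′ on the strand of the gene, from RefSeq on GRCm38.p6.
Ciart, chr3:95882229-95882478, minus strand: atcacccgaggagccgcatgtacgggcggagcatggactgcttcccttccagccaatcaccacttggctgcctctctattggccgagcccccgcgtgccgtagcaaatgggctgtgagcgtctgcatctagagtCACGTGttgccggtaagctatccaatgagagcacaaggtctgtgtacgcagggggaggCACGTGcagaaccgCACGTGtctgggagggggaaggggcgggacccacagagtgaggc
Per3, chr4:151044666-151044915, minus strand: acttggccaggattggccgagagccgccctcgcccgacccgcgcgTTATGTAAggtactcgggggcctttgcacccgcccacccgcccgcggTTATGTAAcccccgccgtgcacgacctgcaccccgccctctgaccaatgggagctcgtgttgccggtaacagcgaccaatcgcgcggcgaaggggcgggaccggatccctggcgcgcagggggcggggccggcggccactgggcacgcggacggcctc
Tef, chr15:81802423-81802672, plus strand: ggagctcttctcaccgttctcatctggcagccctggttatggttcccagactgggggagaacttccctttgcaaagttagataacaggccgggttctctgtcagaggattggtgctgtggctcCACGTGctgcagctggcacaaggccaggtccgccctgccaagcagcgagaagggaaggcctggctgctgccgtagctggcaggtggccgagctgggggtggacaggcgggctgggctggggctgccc
Bhlhe41, chr6:145865421-145865670, minus strand: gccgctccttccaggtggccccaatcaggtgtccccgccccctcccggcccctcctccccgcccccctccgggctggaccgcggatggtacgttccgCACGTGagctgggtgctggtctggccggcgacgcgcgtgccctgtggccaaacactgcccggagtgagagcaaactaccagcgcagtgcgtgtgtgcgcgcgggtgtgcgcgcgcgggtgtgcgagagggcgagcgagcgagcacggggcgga
Tspan4, chr7:141476130-141476379, plus strand: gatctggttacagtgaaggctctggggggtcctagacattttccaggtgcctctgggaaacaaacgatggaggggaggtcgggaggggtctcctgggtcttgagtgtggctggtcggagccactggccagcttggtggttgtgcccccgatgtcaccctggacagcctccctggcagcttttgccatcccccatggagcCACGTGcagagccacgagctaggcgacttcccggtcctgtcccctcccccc
Ppp1r3c, chr19:36736605-36736854, minus strand: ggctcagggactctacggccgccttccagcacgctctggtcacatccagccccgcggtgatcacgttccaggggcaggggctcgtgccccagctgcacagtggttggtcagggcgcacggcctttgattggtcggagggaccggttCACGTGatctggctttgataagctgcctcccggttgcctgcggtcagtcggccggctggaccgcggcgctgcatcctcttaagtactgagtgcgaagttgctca
Asb2, chr12:103356002-103356251, minus strand: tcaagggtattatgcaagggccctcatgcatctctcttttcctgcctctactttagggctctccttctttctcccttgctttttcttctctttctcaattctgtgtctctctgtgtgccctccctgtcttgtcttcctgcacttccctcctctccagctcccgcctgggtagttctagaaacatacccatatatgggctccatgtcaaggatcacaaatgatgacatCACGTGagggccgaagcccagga
Ccdc6, chr10:70096871-70097120, plus strand: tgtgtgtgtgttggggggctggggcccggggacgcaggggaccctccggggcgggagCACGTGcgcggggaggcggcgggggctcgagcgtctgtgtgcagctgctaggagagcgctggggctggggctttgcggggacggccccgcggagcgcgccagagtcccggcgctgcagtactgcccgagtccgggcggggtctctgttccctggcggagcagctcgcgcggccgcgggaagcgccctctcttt
Slc25a36, chr9:97111042-97111291, minus strand: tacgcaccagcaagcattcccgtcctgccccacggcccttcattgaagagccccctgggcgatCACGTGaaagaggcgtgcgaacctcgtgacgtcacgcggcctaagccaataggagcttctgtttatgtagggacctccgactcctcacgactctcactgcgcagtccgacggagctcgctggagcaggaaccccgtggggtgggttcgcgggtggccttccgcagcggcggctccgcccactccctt
The first 5 of these genes were lower with rFibcd1 and the last 4 were higher. A second promoter of Tef also holds the E-box and is not shown. Ciart carries 3 copies of the E-box within this window and Per3 carries 2 copies of the D-box.
Both strands were searched. Of all 32851 mouse promoters in the table, 6.02% hold the E-box CACGTG and 0.819% the D-box TTATGTAA. Among the genes called different between the groups, 52 promoters of 41 genes could be matched, and 9 promoters of 8 genes hold the E-box. Among the called lower genes it was in 5 of 10 promoters, and among the called higher genes in 4 of 42 (9.52%). The D-box was in Per3 alone of these 41 genes. The core AGGTCA of the element bound by Rora and Nr1d proteins was in 6 of 42 promoters of higher genes and 0 of 10 of lower genes, against 14.0% of all promoters, and the glucocorticoid response element was in 0 of 52, against 0.387% of all. The promoters of Per2 and Eln are not shown.

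Levels are given as TPM, the share of all transcripts after adjustment for transcript length, scaled to a total of 1e+06 per library, and differences are on the log2(TPM + 1) scale, rFibcd1 minus mock, so that they understate the change of genes near 1 TPM. Between 18133 and 19456 genes were above 0 in the 19 libraries, and read depth is unknown. The mitochondrially encoded transcripts took 47.5% ± 2.97 (SD, n = 9) of TPM in mock and 43.9% ± 2.95 (SD, n = 10) in rFibcd1 libraries, a difference of -3.59 points (two-sided exact permutation test over 92378 regroupings, p = 0.0186, adjusted over 2 measures 0.0187). With that smaller share, the median log2 difference over the 13426 genes tested was 0.15, and scaling the libraries by the median ratio of genes set it to -0.01. The libraries also fell into 2 sets by the processed pseudogene Pcna-ps2, at or below 0.0802 TPM in one set and at or above 8.07 TPM in the other. The high set held 3 of 9 mock and 6 of 10 rFibcd1 libraries (two-sided Fisher's exact test, p = 0.370). What sets them apart is not given in the sources used here, nor is the hour at which each muscle was collected, so that treatment and time of day cannot be told apart. The mock library numbered 66 stood apart from the other 8 mock libraries in its clock genes, and results that rest on it are given with and without it.

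Of the 13426 genes tested, 56 (0.417%) were called at an adjusted p under 0.05 in limma with Benjamini-Hochberg adjustment, 47 higher (0.350%) and 9 lower (0.0670%) with rFibcd1. The 9 lower genes were Dbp, Ciart, Per2, Per3, Hlf, Tef, Tspan4, Bhlhe41 and Cys1, and all but Tspan4 and Cys1 stand in the clock lists. The lists of core activators, core repressors and PAR bZIP factors together held 22 tested genes, of which 10 were called, 3 higher and 7 lower. These lists were chosen with earlier results of these data known, so the count is a description. Of the 3, Npas2 passed the filter on low values only through the rFibcd1 group. Called genes had a median log2 difference of 0.72 when higher and of -1.15 when lower. In 55 genes (0.410%) the groups did not overlap, 53 higher (0.395%) and 2 lower (0.0149%), and 17 of the 55 were among the called genes. The split of calls depended on scaling, since 83.9% of calls were higher on TPM as deposited and 50.9% of 55 calls after median-ratio scaling, with 34 genes shared. With the mitochondrial share as a term 36 genes were called, 32 of them among the 56, and with the Pcna-ps2 set as a term 36, all among the 56. Without mock library 66 there were 76 calls that held all 56. Leaving out 1 library at a time gave 31 calls at the fewest, without mock library 64, and 169 at the most, without the cachectic rFibcd1 library 11; the others that moved the count by over 1.5 times were mock libraries 62 (35 calls) and 63 (33 calls) and rFibcd1 libraries 47 and 49 (35 calls each).

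Among the core activators, Arntl, Npas2 and Clock rose together with rFibcd1. Arntl, on chromosome 7 (7:113207465-113314126, plus strand), encodes the obligate partner of the activating pair. Its TPM in mock libraries was 1.34 at the lowest, 2.93 at the median and 14.6 at the highest, and in rFibcd1 libraries 13.3, 18.1 and 33.5. The log2 difference was 2.25 ± 0.430 (SE; limma adjusted p = 0.00437). The highest mock value was that of library 66, the remaining 8 mock libraries lay below every rFibcd1 library, and without library 66 the difference was 2.47 (limma adjusted p = 0.000964).
Npas2, on chromosome 1 (1:39193731-39363236, plus strand), encodes a partner of Arntl that can stand in for Clock. It was at 0.0926, 0.145 and 0.553 TPM (lowest, median, highest) in mock libraries and at 0.726, 1.63 and 4.12 TPM in rFibcd1 libraries, a log2 difference of 1.34 ± 0.216 (SE; limma adjusted p = 0.00145). The groups did not overlap. Npas2 was the scarcest of the called clock genes and passed the filter on low values (1 TPM in 9 libraries) only through the rFibcd1 group, with 9 libraries there and 7 elsewhere, so it had to differ to be tested. Of the 56 called genes, 2 passed the filter in this way.
Clock, on chromosome 5 (5:76209868-76304792, minus strand), ranged from 2.49 through 3.35 to 7.03 TPM in mock libraries and from 7.24 through 8.86 to 10.97 TPM in rFibcd1 libraries. Its log2 difference was 1.03 ± 0.182 (SE; limma adjusted p = 0.00161), and the groups did not overlap. Rora, a receptor that activates Arntl, differed by 0.11 and did not pass the test (limma adjusted p = 0.658). Arntl2 and Rorb were too low to be tested. The 5 tested activators had a median log2 difference of 1.03, or 0.89 after median-ratio scaling, against 0.15 and -0.01 over all genes.

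**Figure D1:**
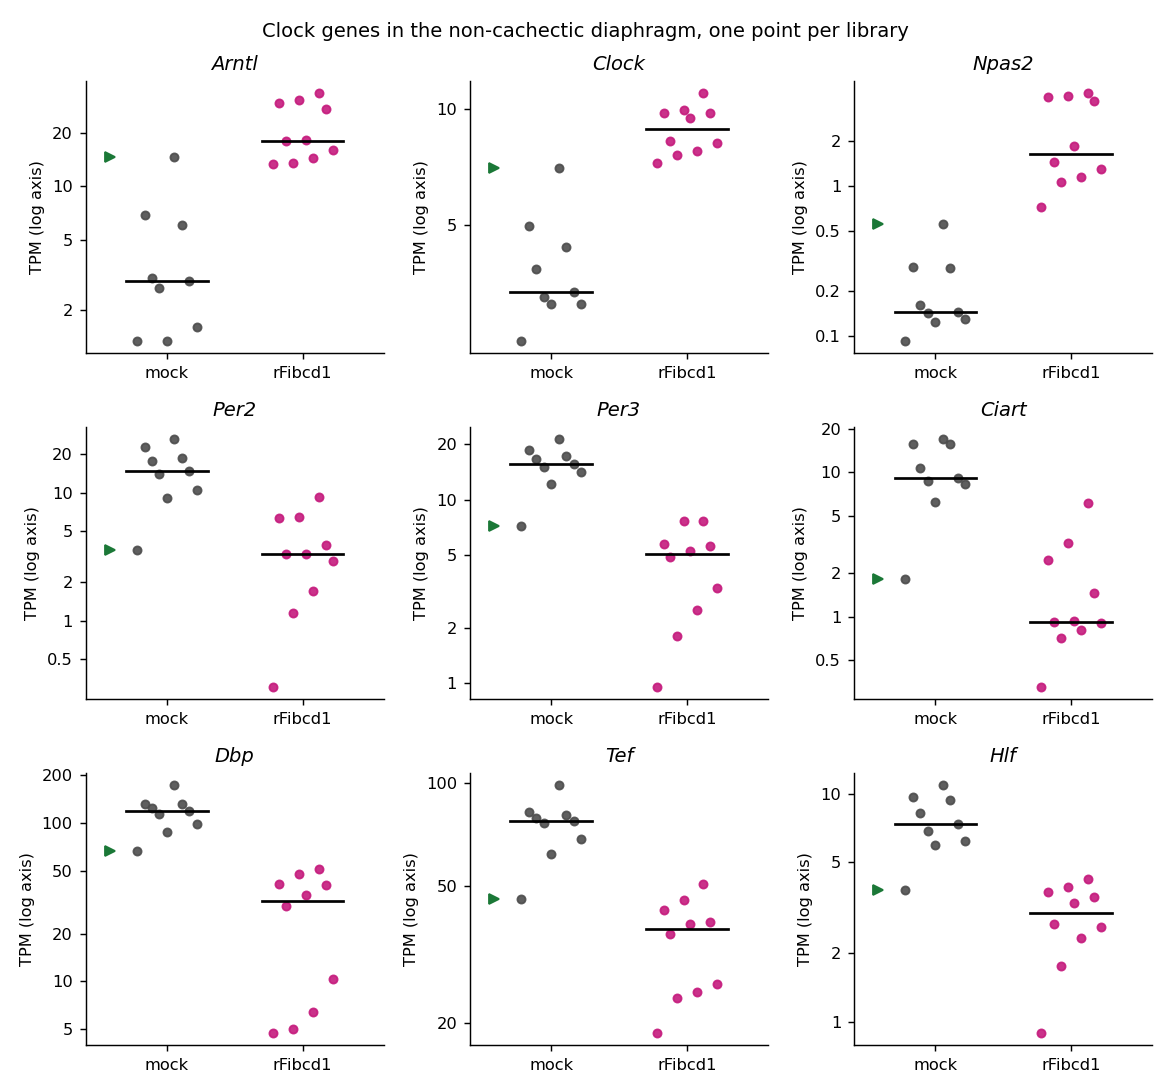
Level of 9 clock genes in each library of the non-cachectic diaphragm, mock (9 libraries) and rFibcd1 (10 libraries), in TPM on a log axis. Each point is 1 library, the line is the group median and the triangle marks mock library 66. Arntl, Clock and Npas2 sit higher with rFibcd1 and the other 6 genes lower, with library 66 at the edge of the mock group that is nearest to rFibcd1 in several panels.

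Of the 13 core repressors, 4 fell and 0 rose. Per2 and Per3 encode period proteins that bind Cry proteins and shut off the activators. Per2 was at 3.56, 14.9 and 26.3 TPM in mock libraries and at 0.304, 3.33 and 9.25 TPM in rFibcd1 libraries, with a log2 difference of -1.82 ± 0.330 (SE; limma adjusted p = 0.00251). Per3 went from 7.18, 15.6 and 21.4 TPM to 0.951, 5.05 and 7.63 TPM, with a log2 difference of -1.66 ± 0.290 (SE; limma adjusted p = 0.00161). For Per2, 6 of 10 rFibcd1 libraries lay below every mock library and for Per3, the gene with 2 D-boxes above, 8 of 10 did. Library 66 was the lowest mock library for both, and the next lowest mock values were 9.18 and 12.1 TPM. Without library 66 the differences were -2.03 for Per2 and -1.78 for Per3 (limma adjusted p = 0.000415 and 0.000557).
Ciart, a repressor that binds the activator pair and the gene with 3 E-boxes above, was at 1.81, 9.09 and 17.0 TPM in mock and at 0.328, 0.923 and 6.18 TPM in rFibcd1 libraries. Its log2 difference was -2.05 ± 0.464 (SE; limma adjusted p = 0.0286). Mock library 66 held the lowest mock value, and without it the difference was -2.28. The call of Ciart was less firm than those of the Per genes: it was lost with the Pcna-ps2 set as a term (limma adjusted p = 0.0603), with the mitochondrial share as a term (0.0717), and when mock library 62, 63, 64 or 65 or rFibcd1 library 47, 49, 56, 58 or 59 was left out (0.0548 to 0.0760).
Bhlhe41 (Dec2), which represses at E-boxes, was at 6.93, 8.46 and 12.1 TPM in mock and at 2.43, 5.76 and 7.37 TPM in rFibcd1 libraries, a log2 difference of -0.77 ± 0.179 (SE; limma adjusted p = 0.0319). All but 1 rFibcd1 library lay below the lowest mock value, and the call was lost with the Pcna-ps2 set as a term (limma adjusted p = 0.0719), with the mitochondrial share as a term (0.107), and when mock library 61 to 65 or 67 or rFibcd1 library 47, 49 or 58 was left out (0.0524 to 0.0934).
The other 9 repressors did not pass the test with all libraries and TPM as deposited. Per1 averaged 34.5 TPM ± 13.7 (SD, n = 9) in mock and 17.0 ± 7.91 (SD, n = 10) in rFibcd1 libraries, with a log2 difference of -1.02 (limma adjusted p = 0.210). Cry2 differed by -0.77 (limma adjusted p = 0.0807). It passed the test after median-ratio scaling (limma adjusted p = 0.0415), without mock library 66 (-0.85, limma adjusted p = 0.0333), and without cachectic mock library 20 or cachectic rFibcd1 library 11 or 17 (limma adjusted p = 0.0227, 0.0427 and 0.0399). Nr1d2 differed by -0.70 (limma adjusted p = 0.183). Cry1 and Nr1d1 departed from that direction: Cry1 differed by 0.30 (limma adjusted p = 0.318), and Nr1d1, the receptor Rev-erb alpha that represses Arntl, averaged 90.9 TPM ± 35.5 (SD, n = 9) in mock and 96.5 ± 34.8 (SD, n = 10) in rFibcd1 libraries. Bhlhe40, Csnk1d and Csnk1e differed by 0.04, 0.07 and -0.00. The median of the 13 repressors was -0.70, or -0.88 after median-ratio scaling.

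All 3 PAR bZIP activators fell. Dbp had the largest difference of the 9 lower genes, with 66.6, 120 and 173 TPM in mock and 4.75, 32.3 and 51.3 TPM in rFibcd1 libraries and a log2 difference of -2.46 ± 0.502 (SE; limma adjusted p = 0.00926). The groups did not overlap, and without mock library 66 the difference was -2.55.
Tef, which like Dbp binds D-boxes, was at 46.0, 77.5 and 98.7 TPM in mock and at 18.7, 37.6 and 50.9 TPM in rFibcd1 libraries, with a log2 difference of -1.12 ± 0.215 (SE; limma adjusted p = 0.00437). Library 66 alone of the mock libraries lay within the range of rFibcd1 libraries, and without it the difference was -1.20 (limma adjusted p = 0.00204). Hlf went from 3.79, 7.35 and 10.9 TPM to 0.895, 3.00 and 4.24 TPM, with a log2 difference of -1.15 ± 0.202 (SE; limma adjusted p = 0.00161), and again library 66 was the lowest mock library, without which the difference was -1.25 (limma adjusted p = 0.000415). Nfil3, the repressor at the same sites, averaged 11.5 TPM ± 3.60 (SD, n = 9) in mock and 26.2 ± 17.1 (SD, n = 10) in rFibcd1 libraries, and its log2 difference of 0.96 did not pass the test (limma adjusted p = 0.216).
A list of 14 tested clock-controlled muscle genes held 1 call, Tspan4, a tetraspanin with an E-box above, at 16.5, 22.9 and 31.2 TPM in mock and at 9.03, 14.5 and 16.7 TPM in rFibcd1 libraries. Its log2 difference was -0.79 ± 0.170 (SE; limma adjusted p = 0.0166, or 0.0508 without mock library 63). In Tcap, which encodes the titin cap of the Z-disc, the groups did not overlap, with 4762, 5121 and 5753 TPM in mock and 2314.5, 3228 and 4243 TPM in rFibcd1 libraries, but the log2 difference of -0.77 did not pass the test (limma adjusted p = 0.199). The median of the list was 0.02, or -0.15 after median-ratio scaling, when 3 of its genes were called lower, against 0.201% of all genes. At an unadjusted p under 0.05, 5 of the 14 were lower and 2 higher, where 0.648% and 16.7% of all genes were. In the fit of the 19 libraries alone, 4 of the 14 were called lower and 2 higher, where 0.521% and 16.7% of all genes were. None of 22 glucocorticoid response genes, which also follow the hour of the day, passed the test (median 0.05, or -0.13 after median-ratio scaling).

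**Figure D2:**
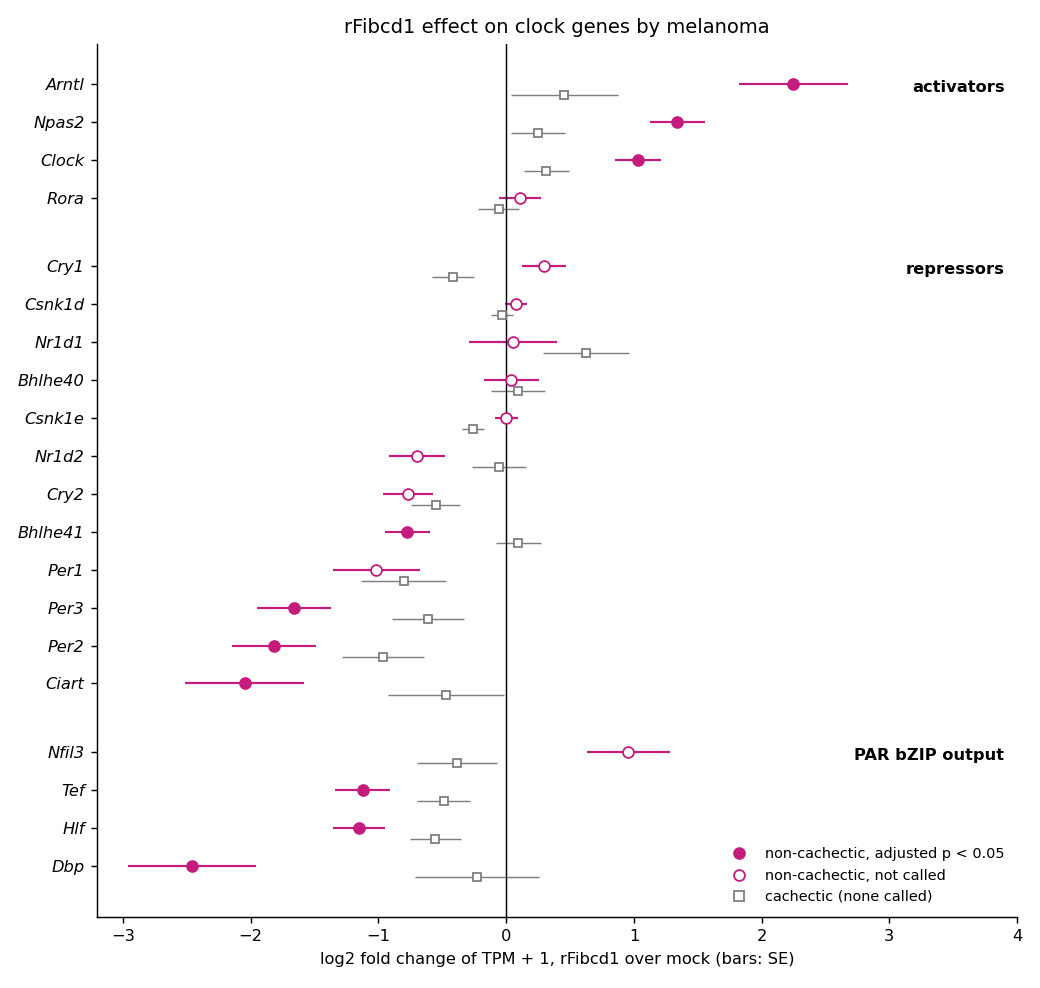
Log2 difference (rFibcd1 minus mock, log2(TPM + 1)) of 20 of the 22 tested clock-list genes, with its standard error, in the non-cachectic diaphragm (circles, filled where the adjusted p is under 0.05) and in the cachectic diaphragm (squares). In the non-cachectic diaphragm 10 genes are filled, from Arntl at 2.25 to Dbp at -2.46, and in the cachectic diaphragm 0 of the 20 passed the test.

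The direction of these differences held within both sets of libraries. In the high Pcna-ps2 set, Arntl differed by 1.58 and Dbp by -2.59 (limma adjusted p = 0.324 for both), and in the low set Arntl differed by 2.42 (limma adjusted p = 0.00815) and Dbp by -2.10 (limma adjusted p = 0.213). Over all genes, the high set alone gave 0 calls in limma with 2016 genes at an unadjusted p under 0.05, and the low set alone 32 calls, all higher, of which 23 were among the 56.

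To follow the clock genes as one value per library, a clock index was taken as the mean log2(TPM + 1) of Arntl, Npas2, Clock and Nfil3 minus the mean of Dbp, Tef, Hlf, Per2, Per3, Ciart, Nr1d1 and Nr1d2. The genes of the index were chosen with the values above known, so it is a description and was not tested. In 8 mock libraries it lay between -3.71 and -2.53, and in mock library 66 it was -1.28. The rFibcd1 libraries spread more widely, with an SD of 1.04 against 0.71 in mock, or 0.395 in mock without library 66. In 6 of them the index lay between -1.22 and -0.49, just above library 66, and in libraries 47, 49, 56 and 58 it was 1.32, 1.04, 0.54 and 1.18. The same 4 libraries had 4.75 to 10.4 TPM of Dbp, and the other 6 had 29.7 to 51.3 TPM. Of the 4, libraries 47, 49 and 56 were in the high Pcna-ps2 set and library 58 in the low one. Within the high set the mean index was -2.34 in 3 mock and 0.11 in 6 rFibcd1 libraries, and within the low set it was -3.18 in 6 mock and -0.51 in 4 rFibcd1 libraries.
In the cachectic diaphragm the index had a median of -2.27 in mock libraries, from -2.90 to 0.31, and of -1.63 in rFibcd1 libraries, from -2.52 to 1.31. The cachectic mock and rFibcd1 groups overlapped over most of their ranges. Limb muscles had no rFibcd1 arm, and their levels are given side by side only. Their column numbers, 6 to 10 and 61 to 65, also name mock diaphragm columns. Whether these libraries came from the same mice is not given in the sources used here. Arntl averaged 2.09 TPM ± 0.464 in the tibialis anterior with the non-cachectic melanoma and 12.5 ± 15.9 with the cachectic one, and 3.29 ± 1.15 and 7.48 ± 2.32 in the soleus (SD, n = 5 in each). Dbp averaged 82.5 TPM ± 10.3 and 46.0 ± 25.4 in the tibialis anterior and 155 ± 22.7 and 67.7 ± 26.6 in the soleus (SD, n = 5 in each).

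**Figure D3:**
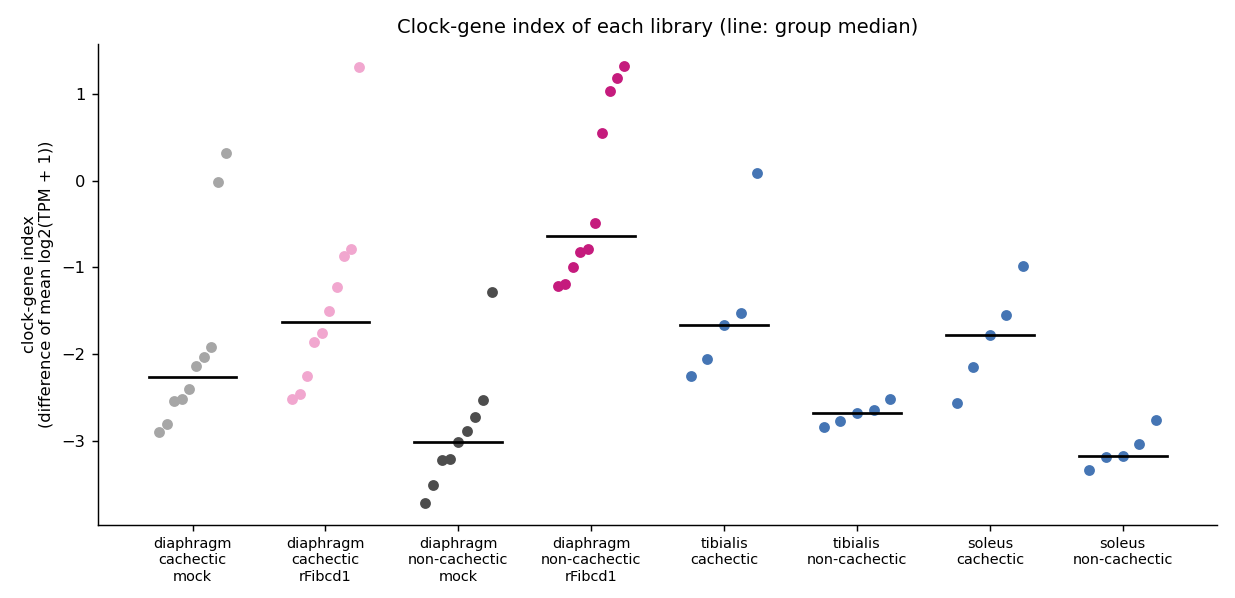
Clock index of every library in the 8 groups of diaphragm and limb muscle, in log2 units, with a line at each group median. The non-cachectic mock diaphragm has its median at -3.02 with library 66 apart at -1.28, and the rFibcd1 group has its median at -0.63 with 4 libraries above 0.

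Among genes of metabolism, Pnpla3 and Ppp1r3c rose. Pnpla3 (15:84167837-84187236, plus strand) encodes a lipid droplet protein that is induced by feeding and insulin in liver and fat. It was at 1.37, 3.11 and 6.21 TPM in mock and at 7.28, 12.4 and 40.5 TPM in rFibcd1 libraries, with a log2 difference of 1.77 ± 0.327 (SE; limma adjusted p = 0.00296) and no overlap. The highest value was that of rFibcd1 library 56, which also had the highest summed level of adipocyte markers.
Ppp1r3c (19:36731731-36736653, minus strand) encodes a subunit that brings protein phosphatase 1 to glycogen and favors glycogen synthesis. It was at 32.5, 88.8 and 260 TPM in mock and at 146, 274 and 449 TPM in rFibcd1 libraries, with a log2 difference of 1.72 ± 0.322 (SE; limma adjusted p = 0.00340). The highest mock value was again that of library 66, and the next highest was 127 TPM, below every rFibcd1 library. Without library 66 the difference was 1.93 (limma adjusted p = 0.000415).
The rest of both pathways did not pass the test. Fatty acid synthesis and lipid droplet genes numbered 25, with Pnpla3 as the 1 call and a median of 0.36 (0.20 after median-ratio scaling), and Scd1, the stearoyl-CoA desaturase, differed by 0.59 (limma adjusted p = 0.540). Glycogen and glucose genes numbered 24, with Ppp1r3c as the 1 call and a median of 0.09 (-0.09 after median-ratio scaling), and Pygm, the muscle glycogen phosphorylase, differed by 0.11 (limma adjusted p = 0.475). Genes of fatty acid oxidation (21 tested, median 0.04) and cholesterol synthesis (14 tested, median 0.09) held 0 calls, with 1 and 0 genes at an unadjusted p under 0.05, where 17.4% of all genes were.

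Genes of the extracellular matrix gave 3 calls among the listed genes, all higher: Col5a3 and Col4a2 among 21 collagen chains and Eln among 32 other matrix genes, where 0.350% of all genes were called higher. In the fit of the 19 libraries alone, 11 of the collagen chains and 10 of the other matrix genes were called higher and 1 other matrix gene lower, where 16.7% and 0.521% of all genes were, and after median-ratio scaling 1 gene of each list was called higher. Col5a3 (9:20770050-20815067, minus strand), a chain of fibril-forming type V collagen, was at 3.99, 5.51 and 10.2 TPM in mock and at 11.9, 15.1 and 22.9 TPM in rFibcd1 libraries. Its log2 difference was 1.34 ± 0.220 (SE; limma adjusted p = 0.00158), and the groups did not overlap.
Eln (5:134702593-134747323, minus strand), which encodes elastin, was at 10.8, 13.4 and 21.7 TPM in mock and at 20.2, 33.7 and 52.8 TPM in rFibcd1 libraries, with a log2 difference of 1.13 ± 0.197 (SE; limma adjusted p = 0.00161). In 9 of 10 rFibcd1 libraries it was above every mock library. Col4a2, a basement membrane collagen, was at 31.1, 45.0 and 62.8 TPM in mock and at 62.1, 71.9 and 85.4 TPM in rFibcd1 libraries, with a log2 difference of 0.64 ± 0.146 (SE; limma adjusted p = 0.0289), and its call was lost after median-ratio scaling (limma adjusted p = 0.0807) and when mock library 62 to 65 or 70 or rFibcd1 library 47, 49, 56 or 58 was left out (0.0550 to 0.0916). Its partner chain Col4a1 averaged 70.2 TPM ± 15.3 (SD, n = 9) in mock and 107 ± 9.95 (SD, n = 10) in rFibcd1 libraries and did not pass the test (log2 difference 0.62, limma adjusted p = 0.0939), except without cachectic rFibcd1 library 1 or 11 (limma adjusted p = 0.0440 and 0.0212).
Spon2, which encodes a secreted matrix protein and stands in no list, was at 0.370, 0.591 and 1.25 TPM in mock and at 2.27, 3.85 and 8.23 TPM in rFibcd1 libraries. Its log2 difference was 1.63 ± 0.315 (SE; limma adjusted p = 0.00466), and the groups did not overlap. All 21 collagen chains had a positive difference, with a median of 0.30, or 0.15 after median-ratio scaling, where 88.8% of all genes tested were positive before that scaling. The other matrix genes had a median of 0.22 (0.05 after median-ratio scaling), and the interstitial collagen Col3a1 differed by 0.55 (limma adjusted p = 0.414). The number of fibroblasts and the RNA of each fibroblast cannot be told apart in whole muscle. Of 8 fibroblast markers 0 passed the test in the fit of all 39 libraries. In the fit of the 19 alone 2 were called higher, where 16.7% of all genes were. Their summed levels were 820 to 1268 TPM in mock and 1021 to 1468 TPM in rFibcd1 libraries, and the part of fibroblasts in the matrix result was not tested.

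The remaining named genes that rose stand in no pathway list, apart from Cldn5. Irf2bp2, a corepressor of transcription, had the smallest adjusted p, with 9.40, 11.4 and 14.5 TPM in mock and 16.5, 19.2 and 28.3 TPM in rFibcd1 libraries, no overlap, and a log2 difference of 0.76 ± 0.110 (SE; limma adjusted p = 0.000415). Ypel2, a small zinc-binding protein gene, went from 3.83, 5.54 and 7.75 TPM to 8.51, 10.6 and 14.0 TPM without overlap (log2 difference 0.83, limma adjusted p = 0.00101).
Cldn5, which encodes the claudin of endothelial tight junctions, went from 13.9, 17.9 and 23.6 TPM to 23.9, 31.5 and 44.4 TPM without overlap (log2 difference 0.76, limma adjusted p = 0.0143). Its call was lost after median-ratio scaling (limma adjusted p = 0.247), and it was the 1 call among 8 endothelial markers, whose summed level was 204 to 278 TPM in mock and 254 to 349 TPM in rFibcd1 libraries. Creb3l1, a transcription factor of the secretory pathway that acts on collagen genes, averaged 2.45 TPM ± 0.918 (SD, n = 9) in mock and 6.52 ± 2.05 (SD, n = 10) in rFibcd1 libraries without overlap (log2 difference 1.12, limma adjusted p = 0.0384). Lrrc30, a leucine-rich repeat protein gene, averaged 43.2 TPM ± 15.2 (SD, n = 9) and 93.9 ± 29.3 (SD, n = 10) without overlap (log2 difference 1.12, limma adjusted p = 0.0319), and its call was lost after median-ratio scaling (limma adjusted p = 0.178).
Slc16a9, a monocarboxylate transporter gene, rose by 0.92 without overlap, and Tmem171, a membrane protein gene, by 1.42. Leo1, a subunit of the PAF1 transcription elongation complex, rose by 0.80 and Foxs1, a forkhead factor, by 0.78. Cys1, a cilium protein gene, was the 1 lower call in no list, at 5.74 TPM ± 1.33 (SD, n = 9) in mock and 2.97 ± 0.670 (SD, n = 10) in rFibcd1 libraries (log2 difference -0.75, limma adjusted p = 0.0156). A further 28 called genes were all higher, with log2 differences from 0.35 in Wwtr1, the Hippo pathway coactivator Taz, to 0.77 in Asb2, a muscle ubiquitin ligase subunit, and limma adjusted p from 0.00161 to 0.0482. In 5 of the 28 the groups did not overlap. With each of the 39 diaphragm libraries left out in turn, 29 of the 56 genes, 23 higher and 6 lower, were called every time. Among the genes named here, the calls of Lrrc30, Creb3l1, Foxs1, Leo1, Asb2 and Wwtr1 held in 29, 26, 24, 37, 29 and 8 of these 39 fits, and those of Ccdc6, Slc25a36 and Tspan4, whose promoters are given above, in 24, 22 and 38.

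**Figure D4:**
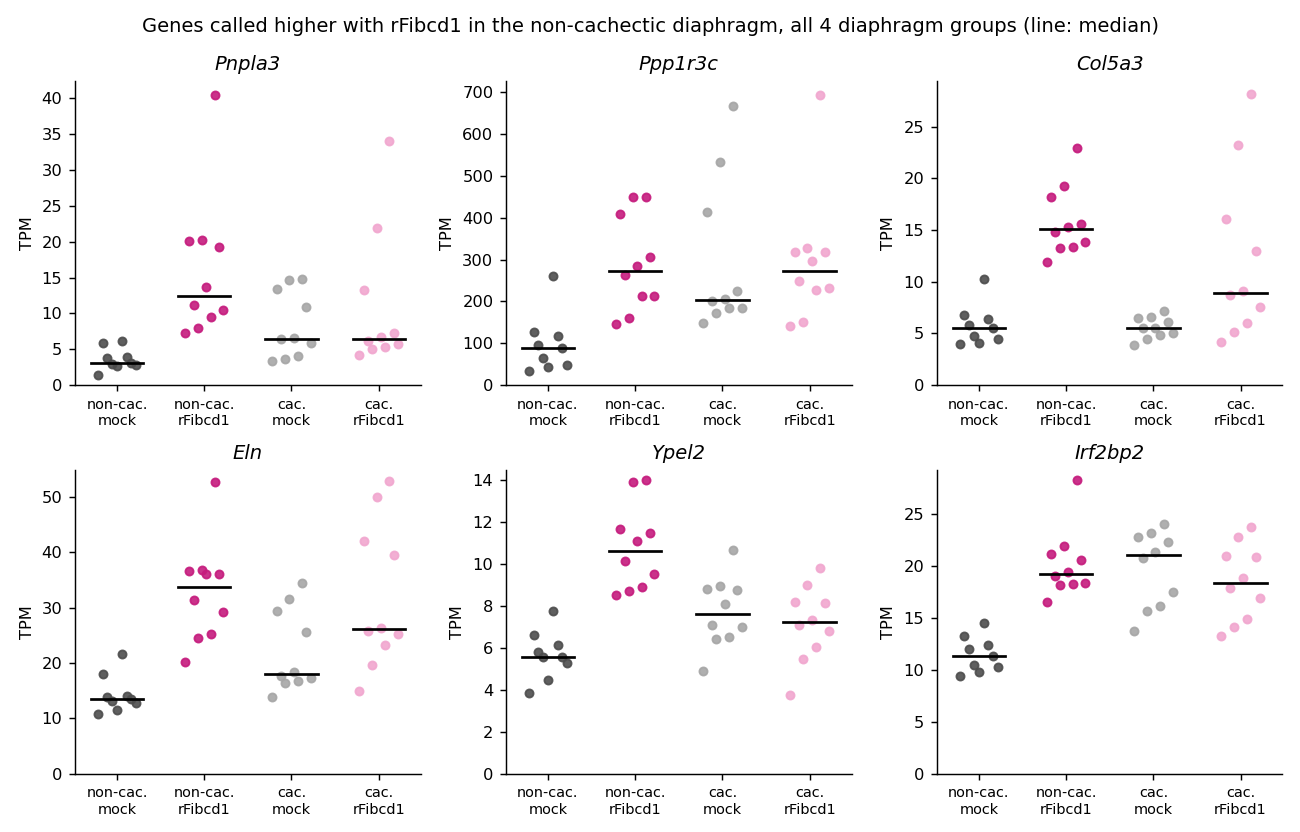
Level in TPM, on linear axes that start at 0, of Pnpla3, Ppp1r3c, Col5a3, Eln, Ypel2 and Irf2bp2 in each library of the 4 diaphragm groups, with a line at the group median. The non-cachectic rFibcd1 group has a higher median than the non-cachectic mock group in all 6 genes, and the 2 cachectic groups overlap each other.

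In the lists of ERK and integrin genes, 0 genes passed the test in the fit of all 39 libraries. Of 25 ERK feedback and immediate-early genes, 3 were higher and 1 lower at an unadjusted p under 0.05, where 16.7% of all genes were higher and 0.648% lower, and the median was 0.23 (0.07 after median-ratio scaling). Of 20 tested integrin genes, 4 were higher at an unadjusted p under 0.05, with a median of 0.19 (0.04 after median-ratio scaling). In the fit of the 19 libraries alone, 3 genes of the ERK list were called higher and 1 lower, and 5 of the integrin list higher. Of all genes, 16.7% were called higher in that fit and 0.521% lower. The transcript of Fibcd1 itself was below 1 TPM in every library, as were Itga2 and Itgb8, so that the endogenous gene was not tested.
Genes of muscle wasting also gave 0 calls in the fit of all 39 libraries. Among 21 ubiquitin ligases of muscle atrophy the median was 0.15 (-0.02 after median-ratio scaling), and 3 were higher at an unadjusted p under 0.05. In the fit of the 19 libraries alone, 9 of the 21 were called higher, where 16.7% of all genes were called higher and 0.521% lower. In the fit of all 39 Fbxo32 (atrogin-1) was at 0.30 (limma adjusted p = 0.546) and Trim63 (MuRF1) at 0.50 (limma adjusted p = 0.406). The 8 cachexia genes that the study named for the melanoma model had a median of -0.01, and the 15 that it named for a lung carcinoma model a median of 0.32 (0.15 after median-ratio scaling). Both lists pool genes for which the study reported opposite directions, so their medians measure no single direction. The first list pools genes raised by rFibcd1 with genes raised by cachexia and held back by rFibcd1. Its values ran from -0.36 in Scgb3a1 to 0.32 in Tnni1. The study chose the first list on diaphragm libraries of this series, those with the cachectic melanoma and the non-cachectic mock ones used here. Insulin, IGF and FoxO genes (24 tested, median 0.18), myostatin, activin and BMP genes (26 tested, median 0.14), heat shock genes (23 tested, median 0.14), acute phase genes (21 tested, median -0.01) and interferon response genes (22 tested, median -0.02) lay between -0.18 and 0.02 after median-ratio scaling. In the fit of the 19 libraries alone, 5, 7, 2, 0 and 0 genes of these lists were called higher, and 1 myostatin, activin and BMP gene lower. Of the genes that the study named, 1 for the melanoma and 3 for the lung carcinoma model were called higher there. Of all genes, 16.7% were called higher in that fit and 0.521% lower.
Genes of the muscle fibers themselves gave 0 calls in the fit of all 39 libraries. The lists were slow-fiber genes (11 tested, median 0.14), fast-fiber genes (14 tested, median 0.06), genes of myogenesis and the neuromuscular junction (21 tested, median 0.14) and nuclear genes of oxidative phosphorylation (30 tested, median 0.04). In the fit of the 19 libraries alone, 2 slow-fiber genes and 3 genes of myogenesis and the junction were called higher, where 16.7% of all genes were. Myl2, the slow myosin light chain, differed by -0.01 ± 0.232 (SE), the lowest value of its list, and Tnni1, the slow troponin I, by 0.32, the highest. Among fast-fiber genes, Myh4, the fastest adult myosin heavy chain, had the highest value, at 0.89 ± 0.620 (SE; limma adjusted p = 0.381), with 13.8, 127 and 567 TPM (lowest, median and highest) in mock and 74.7, 283 and 963 TPM in rFibcd1 libraries. Its libraries varied widely in both groups, and the groups overlapped. Tnnt3, the fast troponin T, was at 0.09 ± 0.119 (SE). Myod1, a transcription factor of the myogenic lineage, had the highest value among genes of myogenesis and the junction, at 0.56 ± 0.178 (SE; limma adjusted p = 0.190). The 13 mitochondrially encoded messenger RNAs were all negative, with a median of -0.11, and 0 of them passed the test. At an unadjusted p under 0.05, 1 slow-fiber gene and 3 genes of myogenesis and the junction were higher, where 16.7% of all genes were, and 1 mitochondrially encoded messenger RNA was lower, where 0.648% of all genes were.

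The labelled tissue was borne out by its markers, since 10 skeletal muscle markers summed to 43352 to 59388 TPM in mock and 40566 to 56626 TPM in rFibcd1 libraries. Over 13 marker lists, 96 genes were tested and Cldn5 was the 1 call in the fit of all 39 libraries. In the fit of the 19 alone, 3 endothelial, 2 fibroblast and 1 skeletal muscle marker were called higher, where 16.7% of all genes were. Other cell types varied between libraries within each group. Adipocyte markers (10 genes) summed to 984 to 3007 TPM in mock and 940 to 9074 TPM in rFibcd1 libraries, with a median log2 difference of 0.76 and 0 calls, and the highest sum was in rFibcd1 library 56. That library was also the highest of its group for B cell markers (7769 TPM, against 62.2 to 7769 over the group and 23.5 to 2173 in mock) and macrophage markers (1860 TPM, against 838 at most in mock). All 8 B cell markers had a positive difference, with a median of 0.92 (0.77 after median-ratio scaling). So had all 9 tested macrophage markers, with a median of 0.44 (0.26 after that scaling). Of all genes 88.8% were positive before that scaling, and 0 of these markers passed the test. Liver markers reached 12069 TPM in mock library 64, from 88.1 TPM at the lowest mock library, and were 83.6 to 1024 TPM in rFibcd1 libraries. Mesothelium summed to 100 to 306 TPM in mock and 116 to 274 TPM in rFibcd1 libraries, red blood cells to 2406 to 10580 and 1989 to 8063 TPM, neutrophils to 4.16 to 25.4 and 5.70 to 187 TPM, tendon to 82.7 to 180 and 88.8 to 210 TPM, and Schwann cells to 90.9 to 130 and 102 to 151 TPM. The pigment cell genes Pmel, Mlana, Tyr and Tyrp1 were below 1 TPM in every library, and the 7 melanocyte markers summed to at most 10.7 TPM. The part of these cells in the called genes was not tested. Without library 56, the log2 difference was 2.19 in Arntl, -2.37 in Dbp and -1.63 in Per3, with limma adjusted p of 0.0119, 0.0256 and 0.00439.

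The same treatment was compared in the cachectic diaphragm, where rFibcd1 gave 6 calls (0.0447%) in the fit of all 39 libraries, none of them a clock-list gene and none among the 56. That count was not stable: it was 27 after median-ratio scaling, 603 with array weights, 813 in high-state and 208 in low-state libraries alone, 18 with the state and 1 with the clock index as a term. With each library left out it was 0 (without cachectic rFibcd1 library 1 or cachectic mock library 6 or 7, with 947 to 1459 genes at an unadjusted p under 0.05) to 127 (without cachectic rFibcd1 library 3), against 1412 (10.5%) at an unadjusted p under 0.05 with all libraries. There Arntl averaged 7.29 TPM ± 8.30 (SD, n = 10) in mock and 9.97 ± 9.28 (SD, n = 10) in rFibcd1 libraries, a log2 difference of 0.46, and Dbp averaged 67.0 ± 41.9 and 54.4 ± 32.99 (SD, n = 10 in each), a log2 difference of -0.23. All 56 genes had a smaller difference in size than in the non-cachectic diaphragm, where they were chosen by that difference. Of the 47 higher genes, 37 had a positive difference in the cachectic diaphragm, where 59.6% of all genes were positive, and their median was 0.14 against 0.03 over all genes. Of the 9 lower genes 8 were negative, with a median of -0.49, and Bhlhe41 was at 0.10.
Whether the effect of rFibcd1 differed between the melanomas was tested as an interaction, which called 3 of 13426 genes (0.0223%): Irf2bp2, Ypel2 and Gm3411. Irf2bp2 differed by 0.86 ± 0.153 (SE; limma adjusted p = 0.0272) between the 2 effects, since it averaged 19.7 TPM ± 3.66 in cachectic mock and 18.4 ± 3.66 in cachectic rFibcd1 libraries (SD, n = 10 in each). Ypel2 differed by 0.93 ± 0.179 (SE; limma adjusted p = 0.0321), with an effect of -0.11 in the cachectic diaphragm. Gm3411, a predicted gene of a multi-copy family that was named here for its call and is uncertain, differed by -1.58 ± 0.299 (SE; limma adjusted p = 0.0321), at 1.05 TPM ± 0.861 (SD, n = 9) in mock and 0.213 ± 0.370 (SD, n = 10) in rFibcd1 libraries of the non-cachectic diaphragm. The count of 3 fell to 0 when mock library 61, 65, 67 or 70, rFibcd1 library 49 or 56, or cachectic mock library 8, 20, 34 or 35 was left out, with 874 to 1178 genes at an unadjusted p under 0.05 against 1180 (8.79%) in the full fit. No clock gene passed this test. The interaction of Arntl was 1.79 ± 0.600 (SE; limma adjusted p = 0.507) and that of Dbp was -2.23 (limma adjusted p = 0.483), so a difference between the melanomas was not detectable for the clock genes at the spread of these libraries.
In the cachectic diaphragm Pnpla3 averaged 8.36 TPM ± 4.63 in mock and 10.95 ± 9.77 in rFibcd1 libraries, and Ppp1r3c 293 ± 180 and 296 ± 155 (SD, n = 10 in each). Their mock levels were 3.62 TPM ± 1.55 and 97.6 ± 69.4 (SD, n = 9) in the non-cachectic diaphragm, and the difference of mock levels between melanomas was not tested here. Col5a3 and Spon2 differed by 0.79 and 1.17 in the cachectic diaphragm, and Cys1 by -0.59. The median within-group SD of a gene was 0.156 and 0.196 in the non-cachectic mock and rFibcd1 groups and 0.237 and 0.361 in the cachectic ones, on the log2 scale. These calls rest on a spread shared over the 4 groups, and a fit of the 19 non-cachectic libraries alone called 2317 genes (17.3%), 2247 higher and 70 lower, or 315 after median-ratio scaling, 156 higher and 159 lower.

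**Figure D5:**
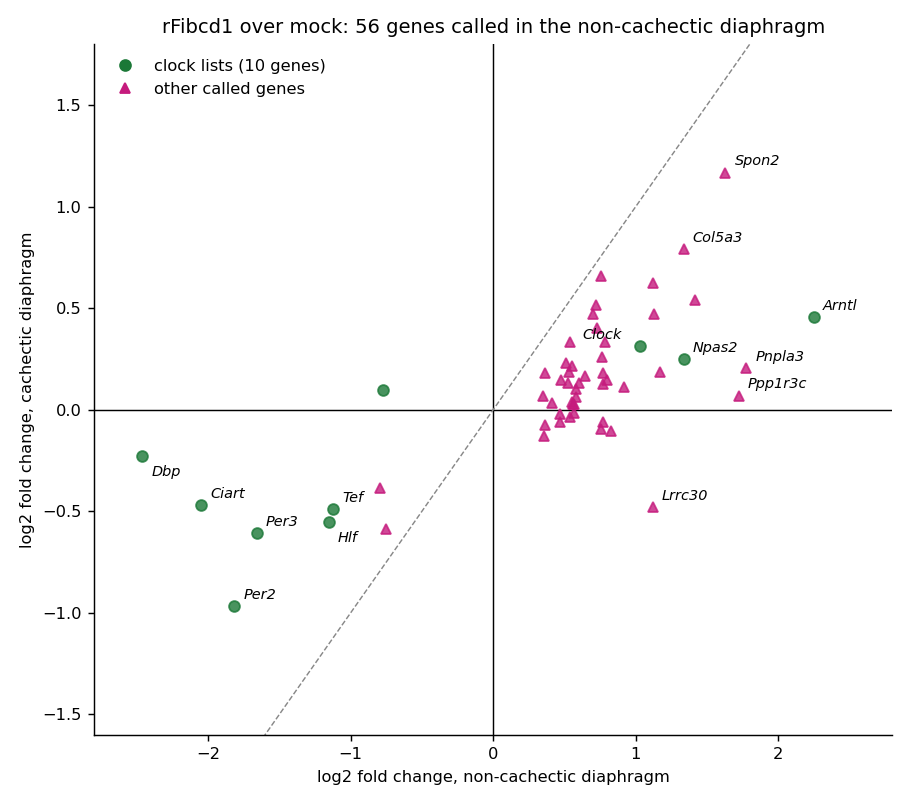
Log2 difference (rFibcd1 minus mock) of the 56 called genes in the non-cachectic diaphragm (horizontal axis) and in the cachectic diaphragm (vertical axis), with a dashed line where both are equal, circles for the 10 clock-list genes and triangles for the others. All 56 points lie nearer to 0 on the vertical than on the horizontal axis, and the genes were chosen on the horizontal one.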

How the data were processed

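Diaphragm RNA of 39 mice in 4 groups was used, of which the 19 libraries with the non-cachectic melanoma are the subject, and the 20 limb libraries were used for levels only. The values are TPM, length-adjusted transcript shares: per the study's methods, the authors trimmed and filtered reads, aligned them to GRCm38 (mm10) and computed TPM with the RNA-Seq tool of CLC Genomics Workbench, and the deposited columns each sum to 1e+06. The annotation is not given in the sources used here, and the labels and the methods name different library kits and instruments. TPM are relative, so a change in a few abundant transcripts moves all others, and they keep no read depth, so no counting interval can be given. Without stated use of strand, overlapping genes cannot be told apart.

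Columns were tied to groups by name. In the non-cachectic diaphragm the column numbers match no replicate number of the labels. In the cachectic diaphragm some column numbers also occur as replicate numbers of their group and others do not. All column numbers only name a library here. Whether libraries of a group share a cage or a day is not given in the sources used here. The p-values therefore measure the spread between these libraries.

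Genes at 1 TPM or more in at least 9 of the 39 libraries were tested (13426 of 47643) on log2(TPM + 1) with limma 3.58.1 in R 4.3.3 (4 groups in one fit, intensity trend, Benjamini-Hochberg adjustment over all genes tested, threshold 0.05). The same fit gave the effect in the cachectic diaphragm and the interaction of rFibcd1 with melanoma. The authors' own test was a rank test on log TPM, which is an alternative here (Dunn test), as is their fold threshold of 1.5. Shares of TPM were tested with exact permutation tests in numpy 2.4.6, and the Pcna-ps2 sets with Fisher's exact test in scipy 1.17.1 (Python 3.11.15, pandas 2.3.3). The fits were tested on simulated data with known changes. These were independent normal values, with the same SD for a gene in all 4 groups, and 9 of 202 calls were false. The unequal spread of the real groups and genes that vary together were not simulated.

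The genes that may be named were, among called genes with a mean of at least 2 TPM, the 15 with the highest and the 15 with the lowest difference, every called gene of a list, the clock lists, the 2 most abundant genes of each other list, Fibcd1, and called interaction genes, and 3 genes of this rule are not reported here. The members and the 39 lists, 13 of them cell type markers, were chosen with earlier results of these data known. Alternatives were a pseudocount of 0.1, no filter, a mean of at least 5 TPM, median-ratio scaling, array weights, the 19 libraries alone, terms for or splits by the Pcna-ps2 state, terms for the clock index and the mitochondrial share, and each library left out. The 19 libraries alone with median-ratio scaling were added after seeing the data. Gene positions are from GENCODE M21, which held 96.9% of the symbols tested and 55 of the 56 called, and promoters are from RefSeq on GRCm38.p6.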

Additional observations from a re-analysis of the deposited data

Results flagged for a closer look

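In 284 sets of values, each 1 gene, list gene or index in 1 of the 2 non-cachectic diaphragm groups, the highest or lowest library was compared with its neighbor, and 26 stood apart from the rest of their group by Dixon's ratio. Chance sets apart about 1 in 20 such sets. Values are log2(TPM + 1).
Mock library 66 stood apart 5 times: it was the lowest mock library for Ciart (1.49, next 2.86) and the highest for Npas2 (0.63), Gfod2 (2.32), Chd7 (2.14) and the clock index (-1.28, next -2.53).
rFibcd1 library 56 stood apart 8 times. It was the lowest rFibcd1 library for Pygm (10.10), the muscle glycogen phosphorylase, and Atp2a2 (9.04), the slow-fiber calcium pump. It was the highest for Pnpla2 (8.42), the adipose triglyceride lipase, Hmgcs1 (5.99), Pecam1 (6.43), Sphk2 (3.99), Gtf2ird1 (3.01) and Efnb1 (4.27).
Mock library 64, which had the highest liver marker sum, was the lowest mock library for Lpl (9.59) and the highest for Hmgcs1 (6.06, next 4.94) and Trf (10.01, next 7.26), the transferrin gene.
Among the clock genes of rFibcd1 libraries, library 58 was the lowest for Cry2 (2.55) and library 47 the lowest for Nr1d1 (4.83, next 5.98). Library 58 was also the lowest for Ccdc6 (3.949), library 47 the highest for Irf2bp2 (4.87), library 49 the highest for Auts2 (1.82) and library 46 the highest for Gm3411 (1.15).
In the mock group, library 62 was the lowest for Nampt (6.14), library 68 the highest for Fbxo32 (7.11), library 70 the highest for Mef2c (6.88) and library 63 the highest for Syne1 (3.58).
The effect of rFibcd1 differed between the melanomas in limma's interaction test for Irf2bp2 (0.86), Ypel2 (0.93) and Gm3411 (-1.58), each on the log2 scale and each as non-cachectic minus cachectic effect.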

How the results depend on the processing

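Against 56 called genes, limma called 5358 with array weights, 2317 in the 19 libraries alone, 315 there with median-ratio scaling, 36 with the Pcna-ps2 state as a term and 36 with the mitochondrial share as a term. In the low-state libraries alone 32 were called, in the high-state libraries alone 0 (2016 at an unadjusted p under 0.05) and with the clock index as a term 0 (153 at an unadjusted p under 0.05). The index is built mostly from called genes, and its highest mock value, -1.28, lay below its lowest rFibcd1 value, -1.22. What this term takes up therefore cannot be told apart from treatment. The term turned Dbp to 0.40, Tef to 0.0046 and Bhlhe41 to 0.047. The Dunn test called 14 after Benjamini-Hochberg adjustment, with 3343 genes at an unadjusted p under 0.05. The study's thresholds, a p under 0.05 and a fold of 1.5, called 171 when set on limma's unadjusted p. The study set them on its own rank test, so neither count repeats its procedure. The 19 libraries alone have a smaller spread than the cachectic groups that share the fit of all 39; the cause of the other shifts was not tested. A pseudocount of 0.1 (56), no filter (46), a mean of at least 5 TPM (38) and median-ratio scaling (55) kept the count within 1.5 times. With each library left out the count was 31 to 169. For the interaction, the 3 calls became 1 without a filter, 150 with array weights, 197 in low-state libraries alone and 0 with the state as a term (795 at an unadjusted p under 0.05), in high-state libraries alone (453), with the clock index as a term (418) and with the mitochondrial share as a term (865), and 0 to 4 with each library left out. The mitochondrial share differed by -2.72 points in high-state and -2.07 points in low-state libraries alone, and the share of the 10 most abundant genes, -3.09 points over all 19, by -2.58 and -1.59, none past the threshold. With each library left out both stayed past it, at -4.29 to -3.03 and -3.65 to -2.57 points.
The values allow no counting error, since depth is unknown, and the 0 calls of small subsets say nothing about stability. The hour of collection is not given per library in the sources used here, so its part in the clock genes cannot be told apart from that of treatment. No paired analysis was possible, since the non-cachectic mock and rFibcd1 columns share no number. Their numbers also match no replicate number of the labels.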

Other observations

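In 38 of the 55 genes whose 2 groups did not overlap, the difference did not pass the limma test. The following were chosen after their values were seen. Lox, the lysyl oxidase that cross-links elastin and collagen, was at 1.70, 3.17 and 3.89 TPM (lowest, median, highest) in mock and at 5.43, 6.55 and 8.27 TPM in rFibcd1 libraries, with a log2 difference of 0.92 (limma adjusted p = 0.0930). Fbn1, which encodes the fibrillin of elastic microfibrils, was at 6.62, 11.5 and 16.7 TPM in mock and at 18.0, 20.7 and 25.3 TPM in rFibcd1 libraries, with a log2 difference of 0.92 (limma adjusted p = 0.199). Adamts4, a matrix protease gene, was at 0.0600, 0.196 and 0.453 TPM in mock and at 0.605, 0.831 and 1.61 TPM in rFibcd1 libraries (limma adjusted p = 0.230). Fbxo30, a ubiquitin ligase gene of the atrophy list, was at 6.83, 8.46 and 8.89 TPM in mock and at 9.14, 12.3 and 16.6 TPM in rFibcd1 libraries (limma adjusted p = 0.164).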
